A study of Mus musculus with 9 samples.

Results

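The genes described here encode respiratory complex I and the factors that build it. They were taken from the deposited table as every row whose symbol begins with Nduf, which gave 43 rows and, after 1 repeat of Ndufb8 was dropped, 42 genes among 13722. The study exposed 3-month-old male C57BL/6J mice to 8% oxygen and sequenced RNA from the plantaris, a fast hindlimb muscle. There were 3 libraries in each of 3 groups: control at 0 h, hypoxia for 2 h and hypoxia for 6 h. Exposed mice were killed while still in 8% oxygen, so no mouse was followed over time. The labels do not tie each library to its own mouse, so a p-value reflects library-to-library spread, which may be technical. Both hypoxia groups share the same 3 controls at 0 h, and low oxygen cannot be told apart from time of day or handling.

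Complex I, NADH:ubiquinone oxidoreductase, is the entry point of most electrons into the mitochondrial respiratory chain: it takes electrons from NADH, passes them along iron-sulphur clusters to ubiquinone and pumps protons across the inner membrane. Its L-shaped body has a matrix arm, which holds the redox centres, and a membrane arm, which holds the proton channels. Core subunits, which have bacterial counterparts, do the catalysis, and accessory subunits surround and stabilise them. Assembly factors join the modules and are absent from the finished enzyme. Muscle relies on the complex for oxidative energy supply.

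By role the 42 genes were 7 nuclear-encoded core subunits, 12 accessory subunits of the Ndufa series, 10 of the Ndufb series, 7 other accessory subunits, 4 assembly factors (Ndufaf1 to Ndufaf4), and the pair Ndufa4 and Ndufa4l2. Ndufa4 carries a complex I name but is now assigned to complex IV, and its paralog Ndufa4l2 is a known target of hypoxia-inducible factor 1 in cultured cells. The core subunits encoded by mitochondrial DNA were not analysed here. Genes now called Ndufaf5, Ndufaf6, Ndufaf7 and Ndufaf8 stand in the table under older symbols, fall outside the rule and are set beside the members. The 42 genes lay on 16 chromosomes, and 2 of them, Ndufa1 and Ndufb11, were X-linked. In the file's annotation (mm9) 11 overlapped another gene, among them Ndufs1 with Gm11602 and Ndufa4l2 with Shmt2 on the opposite strand. On the same strand Ndufa7 overlapped H2-Eb1, Ndufb2 overlapped Adck2, and Ndufb8 overlapped its dropped repeat row. That repeat row averaged 367 RPKM against 615 RPKM for the row kept. Ndufb2 also overlapped Braf and Gm16272 on the opposite strand. Reads may be shared between such pairs, as strand use in counting is not given in the sources used here.

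Values are RPKM as deposited by the authors, reads scaled by gene length and library size. Reads recovered from the steps between low values totalled 72706716 in the shallowest library (6 h replicate 3) and 137097898 in the deepest (2 h replicate 3). The 11 skeletal muscle markers summed to between 93580 and 110200 RPKM in every library and were all detected. Libraries stood apart in other markers. The 7 slow fibre markers summed to 5467 RPKM in 6 h replicate 3 and to between 424.2 and 1142 RPKM in the other 8. The 8 matrix and fibroblast markers were highest in 6 h replicate 2 and control replicates 2 and 3, at 1124, 966.3 and 1068 RPKM, and lay between 318.2 and 620.5 RPKM in the other 6. Nerve and Schwann cell markers summed to 649.1 RPKM in 6 h replicate 1 and to between 53.52 and 85.55 RPKM elsewhere.

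Complex I genes were abundant in plantaris. The median member averaged 222 RPKM over the 9 libraries, against 4.29 RPKM for the median of the 13309 genes tested (those with a mean of at least 0.5 RPKM). All 42 passed that filter. Of the 42, 33 averaged above 100 RPKM, and so did 576 of all genes tested. The assembly factors Ndufaf1 to Ndufaf4 lay below the subunits, whose classes overlapped widely (the plot of levels by role). Core subunits had a median of 271 RPKM, with Ndufs3 lowest at 126 RPKM. The Ndufa accessory subunits ran from 65.7 RPKM (Ndufa11) to 638 RPKM (Ndufa3), and the Ndufb ones from 30.9 RPKM (Ndufb2) to 713 RPKM (Ndufb9). The other accessory subunits ran from 64.8 RPKM (Ndufv3, a subunit of the NADH-binding end) to 401 RPKM (Ndufc1). The assembly factors among the members were far lower, from 10.7 RPKM (Ndufaf4) to 18.5 RPKM (Ndufaf1). This gap does not extend to all assembly factors. In controls, 12 factors with other names averaged from 4.43 RPKM (Tmem186) to 69.7 RPKM (Tmem126a). Ndufa4 was the highest member at 1108 RPKM and Ndufa4l2 the lowest at 8.92 RPKM.

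**Figure D1:**
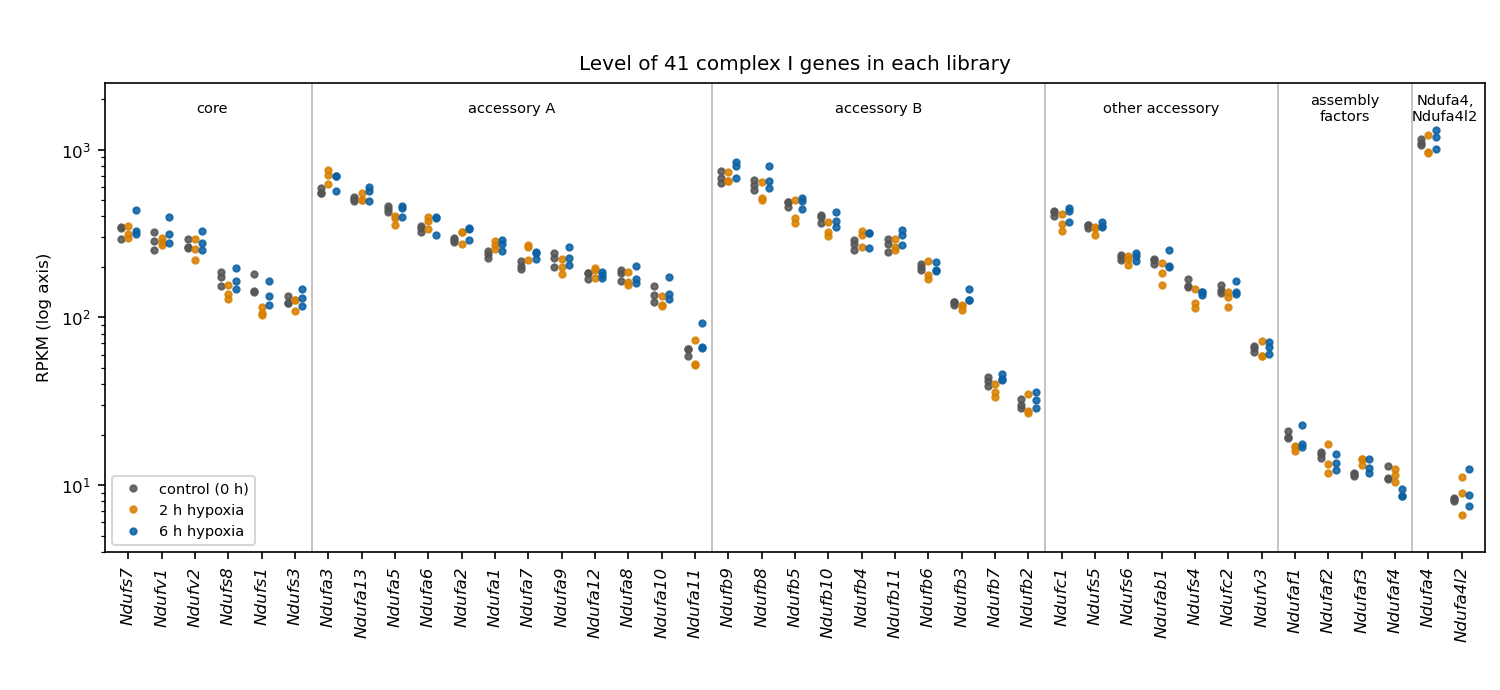
RPKM of 41 of the 42 genes in each library (log axis), ordered by mean within role; grey, orange and blue points are control, 2 h and 6 h libraries. Assembly factors and Ndufa4l2 sit below 23 RPKM, whereas most subunits lie above 100 RPKM, and the 3 groups of a gene lie close together.

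Levels of different genes depend on the length by which the authors divided. From reads, RPKM and the recovered totals, the implied length of a member was a median of 0.995 times its longest coding transcript in a later annotation (GENCODE M21). In 4 members it was at least 2 times as long, against 2.39% of 12527 genes: Ndufb7 (4860 against 623 bases), Ndufs3 (3848 against 1046), Ndufa11 (3263 against 918) and Ndufaf4 (7272 against 3632). Per longest coding transcript these would average 317, 464, 234 and 21.4 RPKM in place of 40.7, 126, 65.7 and 10.7 RPKM. At the other end the deposited length was shorter than the transcript, with ratios of 0.35 for Ndufab1, 0.36 for Ndufc1, 0.45 for Ndufa13 and 0.48 for Ndufb8. Per longest coding transcript Ndufaf4 would be the highest of the 4 assembly factors in place of the lowest, and Ndufc1 would stand at 144.5 RPKM, below Ndufs5 at 260.4 RPKM. The order of levels within a class, Ndufb7, Ndufs3 and Ndufa11 included, thus depends on the length used. Ndufb2, lowest of the Ndufb series, was divided by an implied 4441 bases, close to its longest coding transcript of 4371 bases. Its largest read count in a library, 21186, exceeded those of Ndufb3 (12259) and Ndufb6 (16864), but not those of the other Ndufb members. A gene's length divides all 9 libraries alike and leaves ratios of its RPKM between groups unchanged. Which reads were counted over the longer lengths, those of Ndufaf4 and Ndufb7 included, is not given in the sources used here. Their part in differences between groups was not tested.

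Within genes the libraries differed little. The highest library exceeded the lowest by a median of 1.38-fold, and by less than 1.5-fold in 31 of 42 members. The SD of log2(RPKM + 0.5) over the 9 libraries had a median of 0.152 among members and 0.224 among all genes tested. Ndufs6, a zinc-binding subunit, spanned only 206 to 242 RPKM. The 3 most variable members were Ndufs1, Ndufa4l2 and Ndufa11, with SDs of 0.276, 0.265 and 0.252.

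Summed over the 42 genes, control libraries held 11732, 11323 and 10613 RPKM (mean 11223 ± 566 SD, n = 3). The 2 h libraries held 10591, 9951 and 11895 RPKM (10812 ± 991), and the 6 h libraries 11844, 10657 and 13143 RPKM (11881 ± 1243). The ranges of the 3 groups overlapped. Single libraries stood out more than groups: 6 h replicate 3 was the highest library for 29 of the 42 members, and 2 h replicate 2 the lowest for 23 (the plot of deviations). The sum over the 46 nuclear subunits of complexes II to V was also highest in 6 h replicate 3, at 28400 RPKM, and was lowest in 2 h replicates 2 and 1, at 20880 and 20950 RPKM. The 6 h replicate 3 library is also the one high in slow fibre markers and the shallowest. The part of slow fibre content in the complex I level was not tested. In whole muscle, fewer fibres of a type and less RNA per fibre cannot be told apart.

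**Figure D2:**
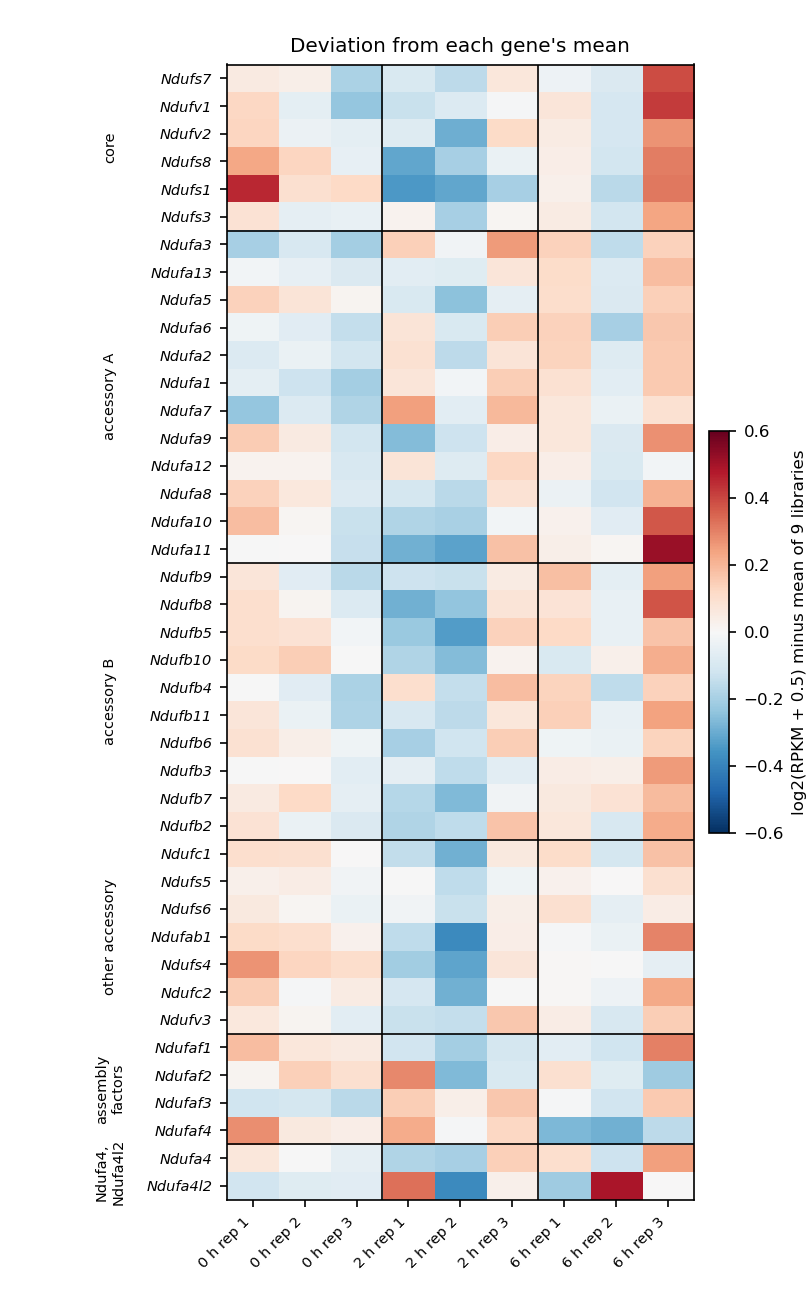
Deviation of log2(RPKM + 0.5) from each gene's mean over 9 libraries, 41 of the 42 genes in rows by role and libraries in columns by time. The column of 6 h replicate 3 is red for most subunits and that of 2 h replicate 2 is blue, while Ndufaf4 is low in all 3 of the 6 h libraries.

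**Figure D3:**
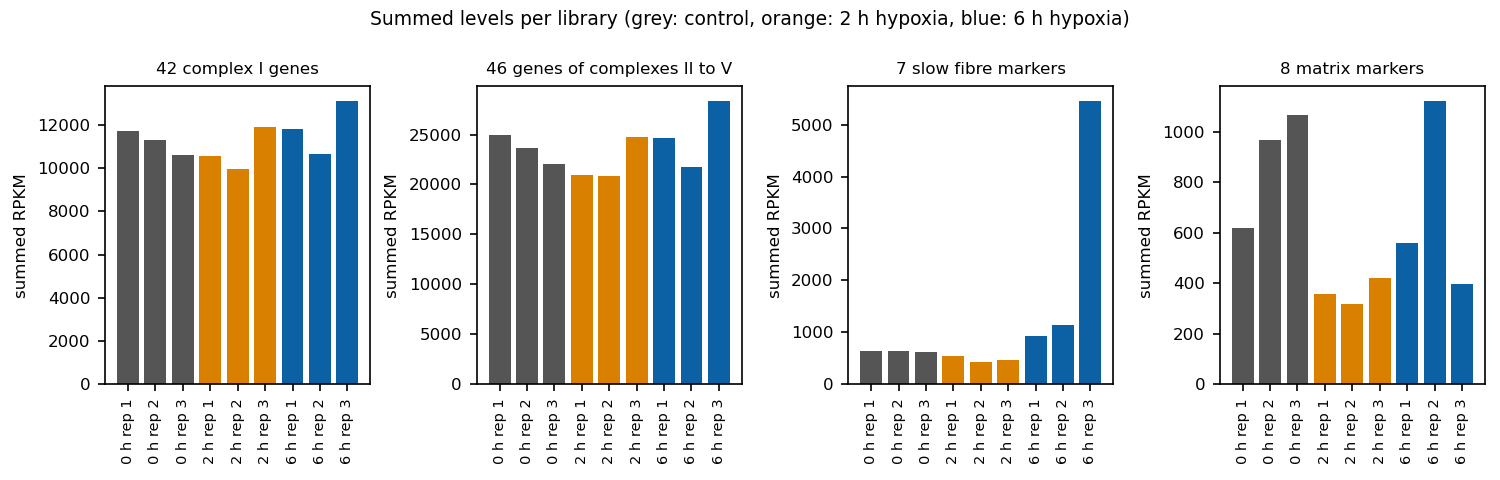
Summed RPKM per library, bars from 0, for the 42 complex I genes, 46 subunits of complexes II to V, 7 slow fibre markers and 8 matrix markers. Library 6 h replicate 3 reaches 13143 RPKM for complex I and 5467 RPKM for the slow fibre markers; 6 h replicate 2, next in slow fibre markers at 1142 RPKM, stands at 10657 RPKM for complex I.

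The first comparison asked what 2 h of hypoxia did to these transcripts. At 2 h, 0 of the 42 members passed the test (limma, adjusted p under 0.05), where 0.774% of all genes tested were called. Differences were small: the median log2 difference from control was -0.08, against 0.00 over all genes tested, and members ran from -0.51 (Ndufs1) to 0.29 (Ndufa3). The mean was higher than control in 10 members and lower in 32, while 49.9% of all genes had a higher mean. An unadjusted p under 0.05 was reached by 5 of 42 members and by 20.1% of all genes. The lower median rested largely on 1 library: without 2 h replicate 2 the median was -0.01, with 19 means higher and 23 lower. With libraries rescaled to a common median, 15 were higher and 27 lower.

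Intervals bounded the size of any change. For 41 of 42 members the 95% interval of the 2 h difference lay within 1.5-fold in both directions, which held for 53.9% of all genes tested. The exception was Ndufs1. The median half-width of these intervals was 0.255 on the log2 scale. A missed threshold does not show that levels were equal.

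**Figure D4:**
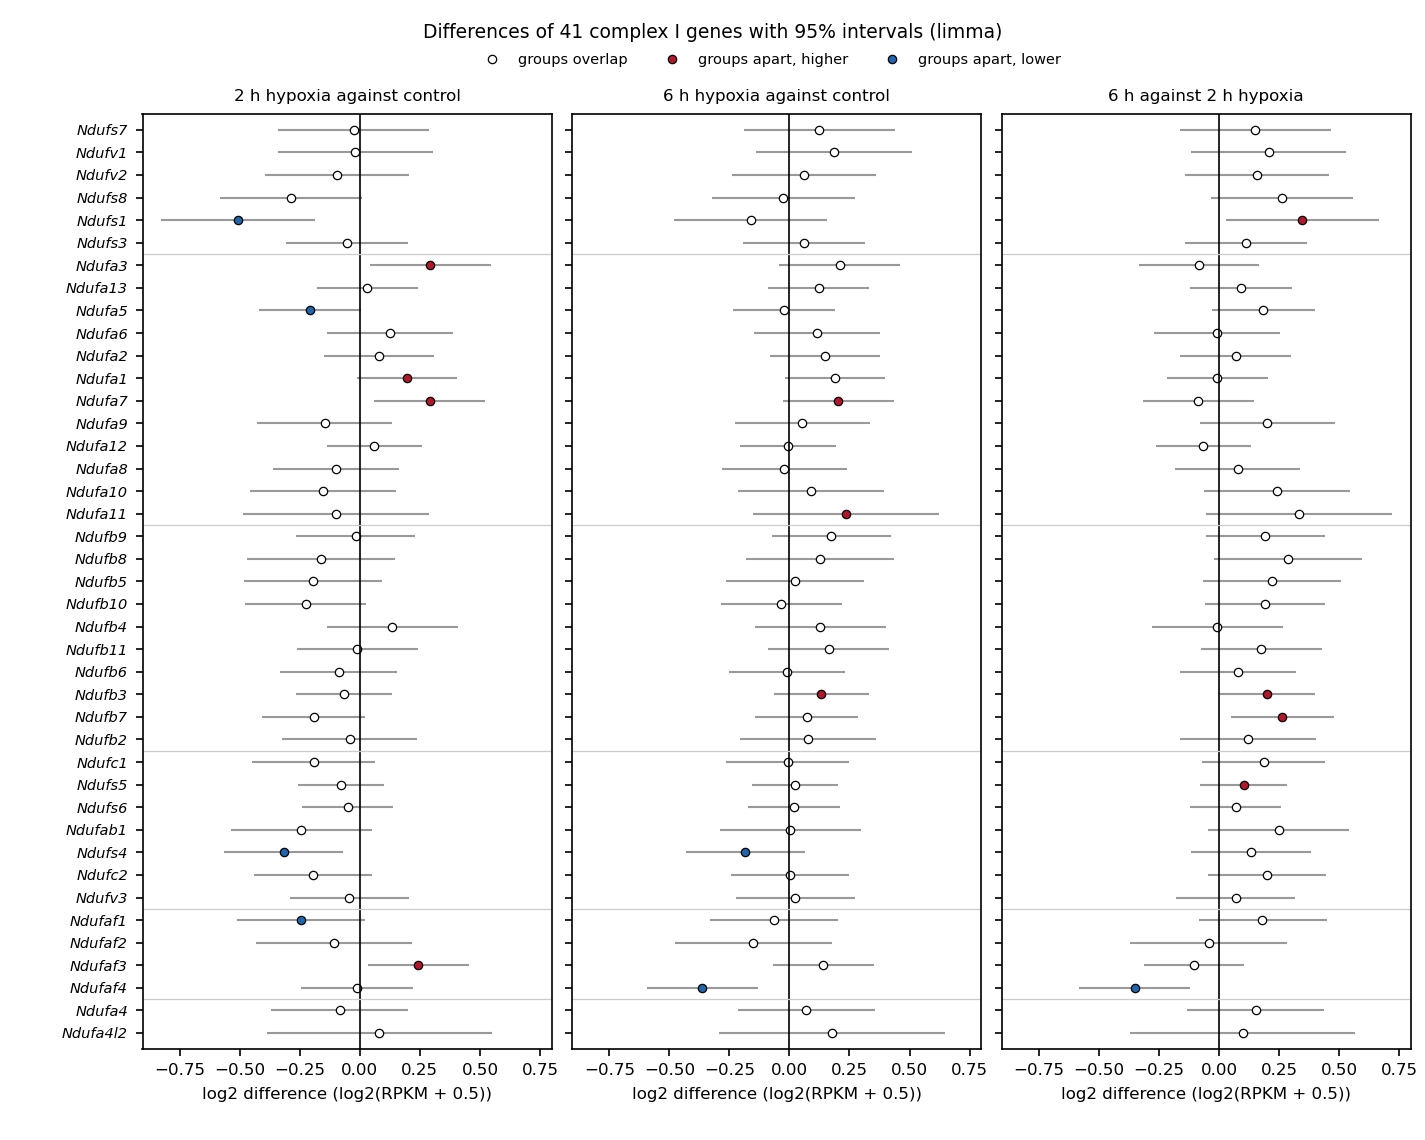
Log2 difference in log2(RPKM + 0.5) for 41 of the 42 members with its 95% interval (limma, 9 libraries), with a panel for each of the 3 comparisons; filled points mark genes whose groups do not overlap, red higher and blue lower. At 2 h, Ndufs1 lies lowest at -0.51, and at 6 h Ndufaf4 lies lowest at -0.36; no gene passes the adjusted threshold.

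Core subunits all had lower means at 2 h, 7 of 7, with a median log2 difference of -0.10. Ndufs1, the largest subunit of the NADH-oxidising end, which carries iron-sulphur clusters, stood at 104, 106 and 115 RPKM in the 2 h libraries, against 181, 141 and 144 RPKM in controls. All 3 of the 2 h libraries lay below all 3 controls. The mean was 108 ± 5.76 RPKM at 2 h and 155 ± 22.2 RPKM in controls (SD, n = 3 each), a log2 difference of -0.51 ± 0.14 (SE; limma adjusted p = 0.105). Its adjusted p ran from 0.0198 to 0.293 over 22 alternative settings, and it was called lower by DESeq2 (adjusted p = 0.0376) and with library weights (0.0198), which called 10.4% and 23.1% of all genes. Ndufs1 spans chromosome 1, 63190170 to 63223396 on the minus strand (mm9).

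The other core subunits differed less. Ndufs8, an iron-sulphur subunit near the quinone site, averaged 140 ± 13.6 RPKM at 2 h and 172 ± 16.6 RPKM in controls, with overlapping groups (log2 -0.29, limma adjusted p = 0.259). Ndufv2, an iron-sulphur subunit beside the flavin site, stood at log2 -0.10. Ndufs3, Ndufs7 and Ndufv1, the subunit that binds NADH and flavin, lay between -0.05 and -0.02. The adjusted p of these 4 (limma) ran from 0.722 to 0.956. With libraries left out in turn, their highest log2 differences were 0.01 (Ndufv2), 0.02 (Ndufs3 and Ndufs7) and 0.07 (Ndufv1). The lower means of all core subunits at 2 h thus did not hold in every such fit.

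The other accessory subunits also had lower means in 7 of 7, with a median of -0.19. Ndufs4, whose loss in mice causes a fatal Leigh-like encephalopathy, stood at 122, 113 and 149 RPKM in the 2 h libraries, against 170, 154 and 152 RPKM in controls. The groups did not overlap, though 2 h replicate 3 came close to the lowest control. The log2 difference was -0.32 ± 0.11 (SE, limma adjusted p = 0.160; 0.0541 to 0.426 over the alternatives). Ndufab1, the mitochondrial acyl carrier protein, which is also needed outside complex I, averaged 184 ± 26.9 RPKM at 2 h and 216 ± 7.10 RPKM in controls (log2 -0.24, adjusted p = 0.327 by limma). Ndufc1 and Ndufc2 stood at -0.19 each and Ndufv3 at -0.04.

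The Ndufa accessory subunits were split, with 7 means higher and 5 lower. Ndufa3, a small membrane-arm subunit, stood at 701, 625 and 757 RPKM at 2 h, against 552, 593 and 550 RPKM in controls. Ndufa7, an accessory subunit of the matrix arm, stood at 272, 220 and 262 RPKM at 2 h, against 195, 217 and 202 RPKM in controls. Both had 2 h libraries that all lay above all controls, with log2 differences of 0.29 ± 0.11 and 0.29 ± 0.10 (SE; limma adjusted p = 0.191 and 0.165). Ndufa1, needed for building the membrane arm, averaged 271 ± 15.8 RPKM at 2 h and 237 ± 11.9 RPKM in controls, also apart (log2 0.20, limma adjusted p = 0.275). Ndufa5, by contrast, was lower in each 2 h library than in each control, at 384 ± 26.1 RPKM against 443 ± 18.4 RPKM (log2 -0.21, limma adjusted p = 0.261). It is named for the lack of overlap, after its values were seen.

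In the Ndufb series, subunits of the far membrane arm, 1 mean was higher and 9 were lower at 2 h (median -0.08), with overlapping groups in all 10. Ndufb7 and Ndufb8 stood at log2 -0.19 and -0.16, Ndufb9 at -0.02 and Ndufb2 at -0.04. Ndufb3 stood at -0.07. The largest size was that of Ndufb10 at -0.23 (limma adjusted p = 0.290), named for its size.

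Among the assembly factors, Ndufaf3, which acts with Ndufaf4 early in building the quinone module, stood at 14.2, 13.1 and 14.4 RPKM at 2 h, against 11.7, 11.9 and 11.4 RPKM in controls. Every 2 h library exceeded every control (log2 0.24 ± 0.09 SE, limma adjusted p = 0.193). Ndufaf1, which acts in building the membrane arm, stood at 17.0, 15.9 and 17.1 RPKM at 2 h, against 21.0, 19.3 and 19.1 RPKM in controls (log2 -0.24, limma adjusted p = 0.285). Ndufaf4 averaged 11.5 ± 0.965 RPKM at 2 h and 11.6 ± 1.16 RPKM in controls.

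In all, 4 members had 2 h libraries entirely above the controls, Ndufa1, Ndufa3, Ndufa7 and Ndufaf3, where 14.9% of all genes did so. Another 4, Ndufs1, Ndufs4, Ndufa5 and Ndufaf1, had them entirely below, where 12.6% of all genes did so. Set against those percentages, 4 of 42 in each direction is no excess. Marker sums of other kinds also stood lower at 2 h, with no overlap. Those of matrix genes lay between 318.2 and 419.7 RPKM at 2 h, against 620.5 to 1068 RPKM in controls, and those of slow fibre genes between 424.2 and 534.8 RPKM at 2 h, against 619.5 to 631.3 RPKM in controls. The 7 slow fibre markers all had lower means at 2 h, with 0 called (limma), but only 2 of them, Myl3 and Tnni1, had groups that did not overlap. Of the 8 matrix markers, 5 lay apart and lower. The part of either in the complex I values was not tested. Without the 3 libraries high in matrix genes the median of the complex I genes was -0.14, with 9 members higher and 33 lower. That setting leaves control replicate 1 as the only control. Its complex I sum, 11732 RPKM, was the highest of the controls.

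**Figure D5:**
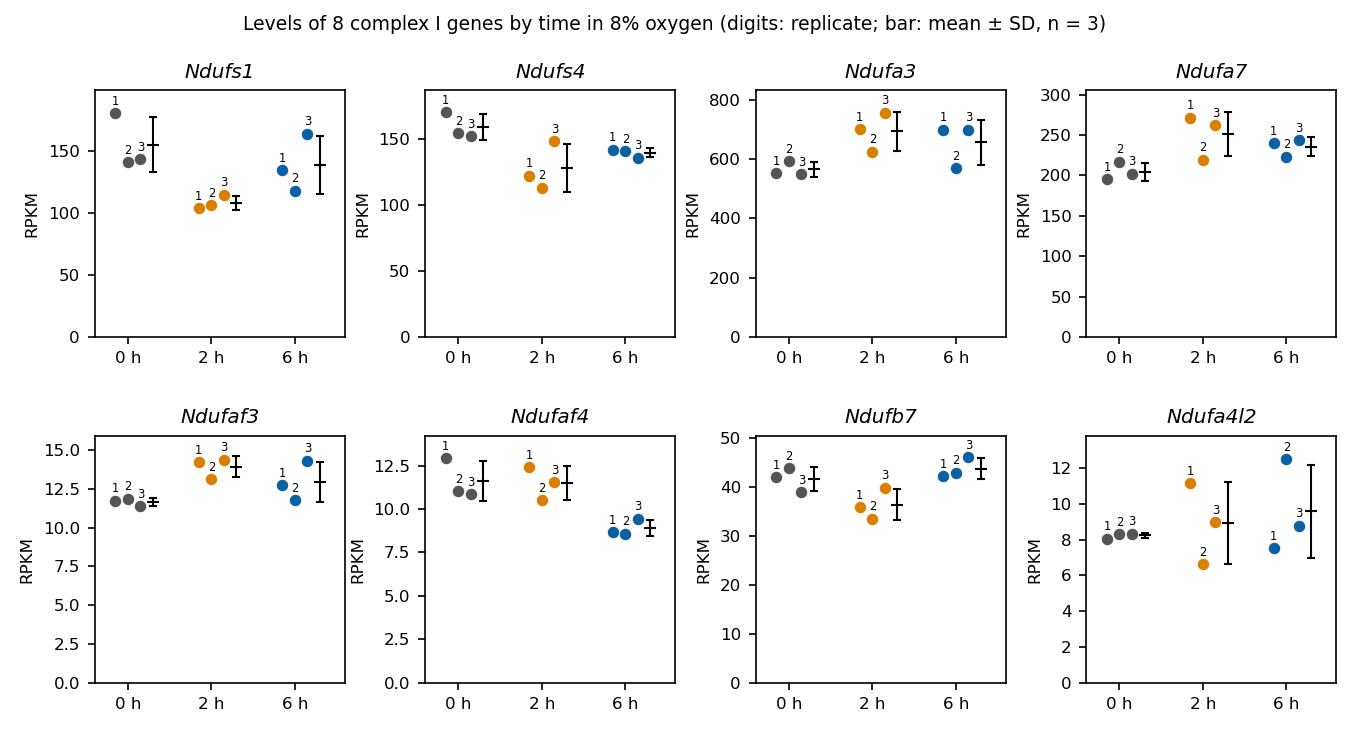
RPKM of 8 members in each library by time in 8% oxygen, from 0; digits give the replicate and black bars the mean ± SD (n = 3). Ndufs1 is lowest at 2 h (104 to 115 RPKM), Ndufaf4 lowest at 6 h (8.57 to 9.44 RPKM), and Ndufa4l2 scatters at 2 h and 6 h around tight controls.

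Start-site sequence was read for 37 of the 42 genes from RefSeq (GRCm38.p6), in windows of 250 bases before and 50 after the annotated start. Ndufa2, Ndufa4l2, Ndufb9 and Ndufs1 were among those with no entry. Short motifs were searched on both strands. ACGTG, a form of the core to which hypoxia-inducible factors bind, was held by 7 members (18.9%) and by 21.8% of 27025 genes. Other forms of that core were not searched. AAGATGGC (YY1) was held by 7 members (18.9%, against 3.19% of genes), CCGGAAG (ETS family) by 5 (13.5%, against 9.93%), GCGCA followed directly by TGCGC (nuclear respiratory factor 1) by 2 (5.41%, against 1.07%) and TCAAGGTCA (oestrogen-related receptors) by 0 (against 0.466%).

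The members whose 2 h libraries lay entirely above the controls, Ndufa1, Ndufa3, Ndufa7 and Ndufaf3, were 4 of the 7 that hold ACGTG. The other 3, Ndufb10, Ndufv1 and Ndufv3, stood at log2 -0.23, -0.02 and -0.04 at 2 h. The median 2 h difference was 0.20 over the 7 holders and -0.10 over the 30 genes without ACGTG, and at 6 h it was 0.19 and 0.04. Genes without ACGTG may hold another form of the core. This pattern was noticed after the values were seen, none of these genes was called, and a match of 5 letters is a description of the window, not a binding site. The 4 upstream stretches follow, with that of Ndufaf4, the member lowest at 6 h. Each runs 5′ to 3′ on the gene's strand and ends at the base before the annotated start, and capitals mark ACGTG or its reverse complement CACGT, or in Ndufaf4 the nuclear respiratory factor 1 motif. In Ndufa7 both strands match, overlapping in CACGTG.
Ndufa1: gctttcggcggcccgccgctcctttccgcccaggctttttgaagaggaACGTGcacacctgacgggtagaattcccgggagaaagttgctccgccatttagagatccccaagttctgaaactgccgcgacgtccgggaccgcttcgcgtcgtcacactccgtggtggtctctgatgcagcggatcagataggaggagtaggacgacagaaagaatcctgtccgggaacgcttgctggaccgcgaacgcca
Ndufa3: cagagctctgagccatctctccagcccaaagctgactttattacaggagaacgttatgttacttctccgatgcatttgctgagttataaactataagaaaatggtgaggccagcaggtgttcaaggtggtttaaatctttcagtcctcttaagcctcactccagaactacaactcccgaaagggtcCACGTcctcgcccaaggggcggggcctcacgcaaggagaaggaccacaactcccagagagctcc
Ndufa7: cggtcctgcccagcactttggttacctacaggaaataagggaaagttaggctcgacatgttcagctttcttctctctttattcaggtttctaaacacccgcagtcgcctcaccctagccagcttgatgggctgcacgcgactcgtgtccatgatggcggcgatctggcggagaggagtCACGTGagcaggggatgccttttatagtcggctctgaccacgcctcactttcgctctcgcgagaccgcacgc
Ndufaf3: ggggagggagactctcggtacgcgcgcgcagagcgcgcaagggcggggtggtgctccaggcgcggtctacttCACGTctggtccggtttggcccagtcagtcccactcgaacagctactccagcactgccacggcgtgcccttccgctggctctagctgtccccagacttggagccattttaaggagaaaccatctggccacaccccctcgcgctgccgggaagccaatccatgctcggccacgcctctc
Ndufaf4: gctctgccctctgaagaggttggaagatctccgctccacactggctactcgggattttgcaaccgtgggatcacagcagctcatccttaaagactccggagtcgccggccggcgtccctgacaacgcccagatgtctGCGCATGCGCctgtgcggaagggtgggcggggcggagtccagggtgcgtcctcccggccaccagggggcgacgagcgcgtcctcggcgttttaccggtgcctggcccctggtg
The first capital lies at position -202 from the start in Ndufa1, -64 in Ndufa3, -72 in Ndufa7, -178 in Ndufaf3 and -113 in Ndufaf4. The stretches are chrX:37191239-37191488 (minus strand, Ndufa1), chr7:3617123-3617372 (plus strand, Ndufa3), chr17:33824322-33824571 (plus strand, Ndufa7), chr9:108567437-108567686 (minus strand, Ndufaf3) and chr4:24897833-24898082 (plus strand, Ndufaf4) in GRCm38.p6.

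The second comparison asked what differed after 6 h. Again 0 of 42 members passed the test, where 1.60% of all genes were called. The median log2 difference from control was 0.06 over the members and 0.05 over all genes tested, with values from -0.36 (Ndufaf4) to 0.24 (Ndufa11). Means were higher in 30 members and lower in 12, and 57.4% of all genes had a higher mean. Only 1 member, Ndufaf4, had an unadjusted p under 0.05, where 19.1% of all genes did. Slow fibre markers summed to 932, 1142 and 5467 RPKM in the 6 h libraries, all above the controls at 619.5 to 631.3 RPKM. All 7 had higher means at 6 h, but only 2 of them, Myl2 and Myl3, had 6 h libraries all above all controls (16.9% of all genes did). In 6 h replicate 1 Tnnt1, for example, stood at 59.6 RPKM, against 93.7 and 71.8 RPKM in control replicates 2 and 3. The 3 erythroid markers summed to between 1873 and 4435 RPKM at 6 h, against 626 to 1942 RPKM in controls, and 0 markers of either kind were called (limma). Their part in the complex I values was not tested. Without 6 h replicate 3, the library with the highest slow fibre sum, the median was -0.02, with 17 means higher and 25 lower. Without control replicate 3 it was 0.02, with 23 higher and 19 lower. The interval lay within 1.5-fold for 39 of 42 members (54.2% of all genes), the exceptions being Ndufa4l2, Ndufa11 and Ndufaf4.

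Ndufaf4 stood at 8.67, 8.57 and 9.44 RPKM in the 6 h libraries, against 12.95, 11.02 and 10.87 RPKM in controls. All 6 h libraries lay below all controls and also below all 2 h libraries, which held 12.4, 10.5 and 11.6 RPKM. The mean was 8.90 ± 0.475 RPKM at 6 h and 11.6 ± 1.16 RPKM in controls, a log2 difference of -0.36 ± 0.10 (SE, limma adjusted p = 0.112). Its adjusted p ran from 0.0134 to 0.310 over the alternatives, and it was called lower by DESeq2 (0.0134) and with library weights (0.0162), which called 8.48% and 30.9% of all genes at 6 h. In 6 h replicate 3, the highest library for 29 members, Ndufaf4 stood below each control and 2 h library. The gene spans chromosome 4, 24825230 to 24832148 on the plus strand (mm9).

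Ndufa7 and Ndufs4 had libraries apart from the shared controls at both 2 h and 6 h. Ndufa7 stood at 240, 223 and 244 RPKM at 6 h against 195, 217 and 202 RPKM in controls (log2 0.20, limma adjusted p = 0.312). Ndufa3 and Ndufa1 stood at 0.21 and 0.19, with overlapping groups (limma adjusted p = 0.339 and 0.304). Ndufa11 and Ndufb3 also had 6 h libraries above all controls, at 0.24 and 0.13, and Ndufs4 had them below, at -0.18 (limma adjusted p = 0.491, 0.448 and 0.396). Ndufs4 was at 142, 141 and 136 RPKM at 6 h. In all, 3 members lay apart and higher, where 16.9% of all genes did, and 2 apart and lower, Ndufs4 and Ndufaf4, where 8.99% did.

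By class the 6 h medians were 0.06 for core subunits (5 of 7 higher), 0.12 for the Ndufa and 0.10 for the Ndufb accessory subunits (9 of 12 and 8 of 10 higher), 0.00 for the other accessory subunits and -0.11 for assembly factors (1 of 4 higher). Ndufs1 averaged 139 ± 23.4 RPKM at 6 h and 155 ± 22.2 RPKM in controls (log2 -0.16, limma adjusted p = 0.576). Ndufv1 stood at 0.19, with 398 RPKM in 6 h replicate 3 and 313 and 277 RPKM in the other 6 h libraries. The matching values of Ndufs7 were 436, 325 and 313 RPKM, and its log2 difference was 0.12. Library 6 h replicate 3 was the highest of all 9 for both.

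The third comparison set 6 h against 2 h. It gave 0 called members, where 0.143% of all genes were called. The median log2 difference was 0.15 over the members and 0.05 over all genes, with 33 means higher at 6 h and 9 lower (57.5% of all genes were higher). All 7 core and all 7 other accessory subunits had higher means at 6 h, with medians of 0.20 and 0.13. Without 6 h replicate 3 the median was 0.06, and without 2 h replicate 2 it was 0.08. An unadjusted p under 0.05 was reached by 4 of 42 members, where 16.4% of all genes did so. The interval lay within 1.5-fold for 39 of 42 members (55.4% of all genes), the exceptions being Ndufs1, Ndufa11 and Ndufb8.

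Ndufaf4 again had the smallest p, with a log2 difference of -0.35 ± 0.10 (SE, limma adjusted p = 0.160; 0.0245 to 0.308 over the alternatives). It was the 1 member whose 6 h libraries all lay below the 2 h libraries, where 8.97% of all genes did so. Ndufs1, Ndufb3, Ndufb7 and Ndufs5 lay entirely above, where 13.7% of all genes did so. Ndufs1 stood at 135, 118 and 164 RPKM at 6 h, against 104, 106 and 115 RPKM at 2 h (log2 0.35 ± 0.14 SE, limma adjusted p = 0.267). Ndufb7 stood at 42.2, 43.0 and 46.2 RPKM at 6 h, against 35.9, 33.6 and 39.9 RPKM at 2 h (log2 0.26, limma adjusted p = 0.222). Ndufb3 averaged 133 ± 11.9 RPKM at 6 h and 116 ± 4.25 RPKM at 2 h, and Ndufb8 677 ± 104 RPKM at 6 h and 554 ± 78.1 RPKM at 2 h (log2 0.20 and 0.29, limma adjusted p = 0.302 and 0.336). The slow fibre markers also had higher means at 6 h, 7 of 7 with an unadjusted p under 0.05 and 0 called (limma). Their sums were between 932 and 5467 RPKM at 6 h and between 424.2 and 534.8 RPKM at 2 h, and erythroid sums were between 1873 and 4435 RPKM at 6 h and between 272 and 1413 RPKM at 2 h. The part of neither in the complex I values was tested.

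Ndufa4 and Ndufa4l2 were followed as a pair. Ndufa4 stood at 1157, 1101 and 1061 RPKM in controls, 973, 960 and 1216 RPKM at 2 h and 1182, 1010 and 1309 RPKM at 6 h. The groups overlapped, with log2 differences from control of -0.08 at 2 h and 0.07 at 6 h (limma adjusted p = 0.745 and 0.804). Ndufa4l2 stood at 8.06, 8.31 and 8.34 RPKM in controls, 11.2, 6.62 and 8.97 RPKM at 2 h and 7.50, 12.5 and 8.78 RPKM at 6 h. Its hypoxia libraries scattered on both sides of closely placed controls, with log2 differences of 0.08 (95% interval -0.39 to 0.55) at 2 h and 0.18 (-0.29 to 0.65) at 6 h. The adjusted p was 0.859 and 0.685 (limma). A rise of 1.5-fold lies inside the 6 h interval and just beyond the upper end of that at 2 h. Over the alternatives the 2 h difference ran from -0.09 to 0.29.

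The authors' deposited table gives p-values against control. A raw p under 0.05 in the authors' deposited table was held by 4 members at 2 h and 1 at 6 h, and 0 had an adjusted p under 0.05 at either time. The shares of all genes that met these thresholds were not counted, so the member counts cannot be called few or many. The lowest adjusted p in the authors' deposited table was 0.160 at 2 h (Ndufs1) and 0.196 at 6 h (Ndufaf4).

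Related genes were described from lists by function. Of 12 complex I assembly factors under other names, 0 were called in any of the 3 comparisons (limma), with medians of -0.04 at 2 h, 0.10 at 6 h and 0.09 between 6 h and 2 h. The 4 factors listed under older symbols, Ndufaf5 to Ndufaf8, averaged between 8.19 and 39.9 RPKM at 2 h and between 9.10 and 38.1 RPKM in controls, with 0 called. The 46 subunits of complexes II to V had 0 called in each comparison and medians of -0.11 at 2 h, 0.06 at 6 h and 0.18 between the times, against -0.08, 0.06 and 0.15 for the complex I genes. The 78 mitochondrial ribosomal proteins also had 0 called, with medians of 0.02, 0.07 and 0.07.

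By length of the longest coding transcript, the 14 shortest members (419 to 757 bases) had a 2 h median of -0.07, against 0.07 for all 267 genes of those lengths. The 14 longest (1445 to 4371 bases) had -0.15, against 0.01 for 7049 genes. At 6 h the same genes stood at 0.07 and 0.05, against 0.10 and 0.05.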

How the data were processed

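The deposited table holds 13722 genes with an RPKM value per library, made by the authors from paired-end reads on mm9. Tools listed in the submitters' processing notes, without versions, are TopHat2 and Bowtie2, FastQC, bedtools and SAMtools. Which program counted reads per gene, and whether by strand, is not given in the sources used here. This table also holds, as deposited by the authors, a highest read count per gene and p-values against control. Whole reads were recovered from the RPKM steps: 100% of 40184 values under 500 reads came within 0.1 read of a whole number.

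All 9 libraries entered 1 limma 3.58.1 fit with a mean-variance trend (R 4.3.3) on log2(RPKM + 0.5), for 13309 genes with a mean of at least 0.5 RPKM. The pseudocount makes fold changes of low genes smaller. P-values were adjusted by Benjamini-Hochberg over all genes tested, with a threshold of 0.05, and every adjusted p printed is limma's unless another tool is named. It called 103 genes at 2 h, 213 at 6 h and 19 between 6 h and 2 h. On recovered reads edgeR 4.0.16 (quasi-likelihood) called 157, 316 and 80, and DESeq2 1.42.0 called 1381, 1129 and 893. The fit was tested on simulated data. Alternatives covered pseudocounts, filters, rescaling, library weights, a replicate block and leaving out libraries. No library was a copy of another (36 pairs compared).

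The members and lists were chosen with earlier results of these data known. Named were the 5 smallest p per comparison, core subunits, Ndufa4, Ndufa4l2, Ndufab1, the extremes of each role class and the 3 most variable members; others are named for groups that do not overlap, or as said beside them, after their values were seen. Values of 1 member enter the counts and medians but are not reported here.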

Additional observations from a re-analysis of the deposited data

How the results depend on the processing

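The count of called complex I genes was 0 in all 3 comparisons under each alternative except 2. With library weights 5 were called at 2 h (Ndufa1, Ndufa3, Ndufa7 and Ndufaf3 higher, Ndufs1 lower), 11 at 6 h (10 higher, and Ndufaf4 lower) and 0 between 6 h and 2 h; that setting called 23.1% of all genes at 2 h and 30.9% at 6 h. DESeq2 on recovered reads called 1 at 2 h (Ndufs1, lower), 1 at 6 h (Ndufaf4, lower) and 1 between 6 h and 2 h (Ndufaf4, lower), each 1 of 42, where it called 10.4%, 8.48% and 6.71% of all genes. The cause was not tested. Leaving out each library in turn gave 0 to 0 calls, with medians between -0.15 and -0.01 at 2 h, -0.02 and 0.12 at 6 h, and 0.06 and 0.22 between 6 h and 2 h. Summed levels then averaged 10968 to 11528 RPKM in controls, 10271 to 11243 RPKM at 2 h and 11251 to 12494 RPKM at 6 h. Deviations of same-numbered libraries had correlations from -0.33 to 0.49. These cannot decide whether such libraries pair, as those of different numbers were not set beside them. With the replicate block 0 complex I genes were called in each comparison. Rescaling moved the 6 h median from 0.06 to 0.04 and, over all genes at 6 h, gave 111 higher and 131 lower calls against 133 and 80. Over all genes, leaving out 1 library gave 0 to 396 calls at 2 h, 10 to 417 at 6 h and 0 to 9 between 6 h and 2 h, and the replicate block gave 1, 43 and 2. With a term for the 3 libraries high in matrix genes the 6 h median was 0.00, with 21 means higher and 21 lower. That term gave -0.18 at 2 h, with 7 higher and 35 lower, and 0.21 between 6 h and 2 h, with 35 higher and 7 lower. In each comparison 0 were called. With 3 libraries a group, the median interval half-width of 0.255 (log2) limits what could be detected.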

Other observations

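Of 15 regulators of respiratory genes, 0 were called in any comparison (limma), with medians of -0.03 at 2 h, -0.03 at 6 h and 0.07 between 6 h and 2 h. Ppargc1b, a coactivator of mitochondrial genes, had the smallest 2 h value of the list and is named after its values were seen. It averaged 0.786 ± 0.155 RPKM at 2 h and 1.58 ± 0.163 RPKM in controls, a log2 difference of -0.70 ± 0.15 (SE, limma adjusted p = 0.060). At 6 h it averaged 0.924 ± 0.0793 RPKM, a log2 difference from control of -0.54 (limma adjusted p = 0.104).

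The 5 members with CCGGAAG in the start-site window had a median difference of -0.19 at 2 h, with 0 means higher and 5 lower. The 32 without it had a median of -0.07, with 8 means higher and 24 lower. At 6 h the 5 holders had a median of -0.01, with 2 means higher and 3 lower. The 2 h pattern was noticed after the values were seen and carries no test.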
